A study of Astyanax mexicanus with 18 samples.

Results

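The genes described here encode the proteasome of *Astyanax mexicanus*: the subunits of its 20S core and 19S cap, the factors that assemble both, the alternative caps that open the core, and its inhibitor. They were picked by symbol, as every gene named psma to psmg with a number, adrm1 or pomp, with at least 1 TPM (a level scaled to gene length and to the total of its library) in 3 or more of 12 liver libraries. Of 27420 listed genes, 55 carried such a symbol and 52 passed the filter. Of these 52, 51 reached 1 TPM in all 12 libraries and psmd10 reached it in 10. The 3 left out were psmb11b and PSMB11 (1 of many), both listed at 0 in every library, and psmc3ip, a meiotic recombination protein that shares only the letters of the symbol and stayed under 1 TPM.

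Livers came from the eyed surface form of the species, a river fish, and from the Pachón population of blind cavefish, all 4 months old. Every fish had fasted for 4 days, and the refed ones were given 10 mg of a feed, named Gemma in the labels, 3 hours before dissection. Surface starved, surface refed, Pachón starved and Pachón refed fish make 4 groups with 3 libraries each. The labels count 3 refed fish in each population but tie no library to a fish, so the p-values measure the spread between these libraries. The read depth is unknown, since TPM do not keep it.

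The proteasome degrades proteins that carry a chain of ubiquitin. Its 20S core is a barrel of stacked rings: outer rings of alpha subunits, which hold the gate, around inner rings of beta subunits, some of which cut the protein. A 19S cap on the end of the barrel binds the ubiquitin chain, removes it with its lid, and unfolds and feeds in the substrate with a ring of ATPases in its base. The liver makes and breaks down protein at a high rate, and feeding and fasting are known to shift that balance.

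Many proteasome genes rose after the meal in Pachón cavefish and some in surface fish, with no call for a decrease at the main settings. None of the surface calls held under every alternative run. A difference between the populations was not shown for any of the 52 genes (0 limma calls for the difference of responses). A gene was called at a limma p, adjusted over all 13157 tested genes, under 0.05. In Pachón cavefish 28 of the 52 genes rose and 0 fell, against 22.9% of all tested genes that rose and 7.64% that fell. In surface fish 10 of the 52 rose and 0 fell, against 9.03% and 9.68% of all tested genes. Of genes with a negative change, 1 in surface fish (psmd9) and 0 in Pachón cavefish had an unadjusted limma p under 0.05. Under other settings decreases of psmd9 in surface fish and of psmf1 in Pachón cavefish were called. The log2 fold change, on the log2(TPM + 1) scale, was above 0 for 49 of the 52 genes in Pachón cavefish (60.2% of all tested genes) and for 46 in surface fish (47.0%). Its median over the 52 genes was 0.98 in Pachón cavefish, against 0.17 over all tested genes, and 0.57 in surface fish, against -0.04. The refed libraries all lay above the starved ones for 42 genes in Pachón cavefish (35.7% of all tested genes) and for 14 in surface fish (14.9%). Most of these genes differed between libraries in the same direction. Such counts, here and by role below, are therefore not counts of separate observations. All 10 genes that rose in surface fish were among the 28 of Pachón cavefish, which is 100% of the first list and 35.7% of the second. Over all tested genes the shared calls made up 85.2% and 33.5% of the corresponding lists.

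**Figure D1:**
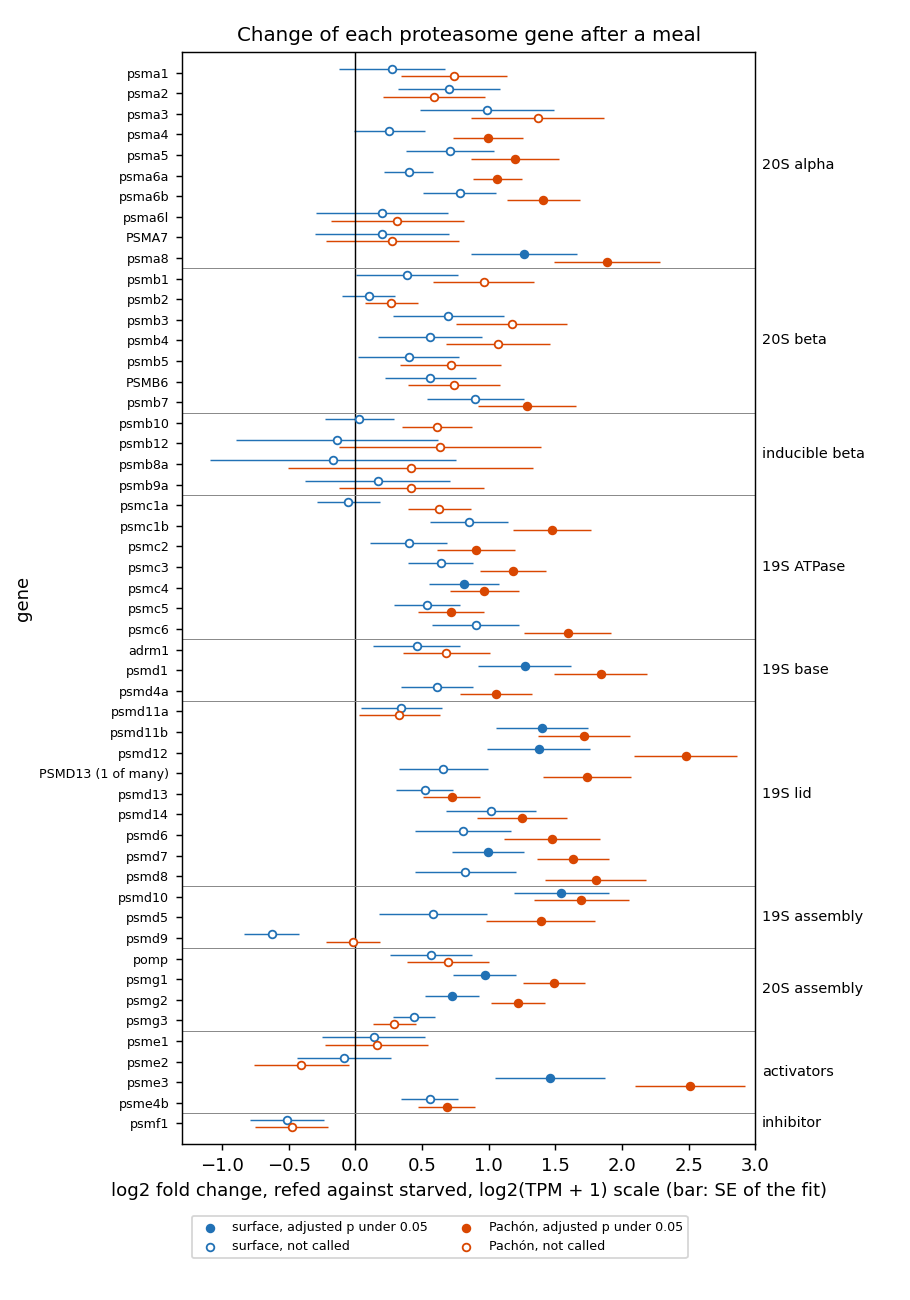
Log2 fold change of each of the 52 proteasome genes after the meal, on the log2(TPM + 1) scale, in surface fish (blue) and Pachón cavefish (orange), grouped by role. Points are refed minus starved, bars are the SE of the fit, and filled points passed the test: 10 in surface fish and 28 in Pachón cavefish, all to the right of 0.

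The calls in surface fish rested on few libraries. None of the 10 held under every alternative run, and with only the 6 surface libraries fitted there were 0 calls. Without refed replicate 3 there were 0 calls, without starved replicate 1 there were 4, without starved replicate 3 there were 3, and without refed replicate 2 there were 6. Without starved replicate 2 there were 22. Over all tested genes, 1188 rises in surface fish became 322 with only the surface libraries fitted and 547 without refed replicate 3. They became 762 without starved replicate 1, 720 without starved replicate 3, 1224 without refed replicate 2 and 1336 without starved replicate 2. In Pachón cavefish 17 of the 28 calls held under every alternative run, and leaving out starved replicate 3 or refed replicate 1 left 18 genes called each time. Those 2 runs took the rises over all tested genes from 3019 to 2246 and 2173.

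The libraries of a group differed mostly in the same direction across the proteasome genes. In starved surface fish replicate 2 was the highest of 3 for 47 of the 52 genes, and the summed level of the 52 genes was 818, 1580 and 997 TPM in replicates 1 to 3. In refed surface fish replicate 3 was the highest for 49 genes, with summed levels of 1221, 1448 and 2178 TPM. Starved Pachón cavefish had replicate 3 lowest for 44 genes, with sums of 1134, 1466 and 762 TPM. Refed Pachón cavefish had replicate 1 highest for 45 genes, with sums of 2379, 1832 and 1890 TPM. The highest starved surface library thus lay above the lower pair of refed surface libraries, while in Pachón cavefish no starved library reached a refed one. Means were 1132 ± 398 and 1616 ± 500 TPM (SD, n = 3) for starved and refed surface fish, against 1120 ± 352 and 2034 ± 300 TPM in Pachón cavefish.

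**Figure D2:**
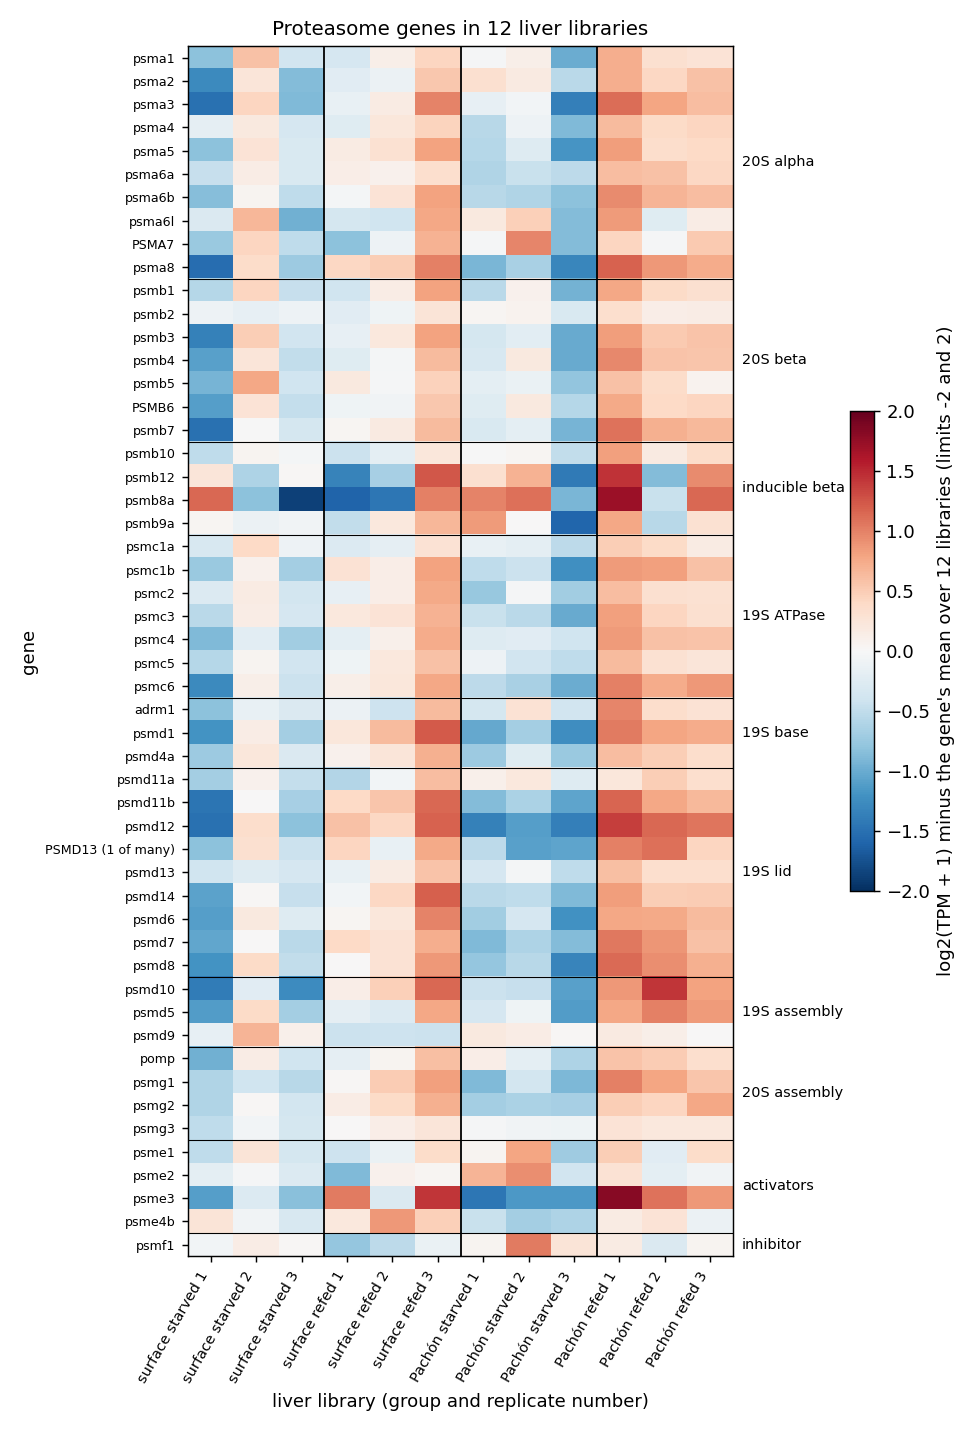
Level of each of the 52 proteasome genes in the 12 liver libraries, as log2(TPM + 1) minus the gene's mean over the libraries, with genes grouped by role. Surface starved replicate 2 and surface refed replicate 3 are redder than the other libraries of their groups for 47 and 49 genes, and Pachón starved replicate 3 is the bluest of its group for 44.

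Markers of other cell types moved with some of these libraries. The summed hepatocyte markers, 13 of 13 above 1 TPM in 3 libraries, were 112085 TPM in starved surface replicate 2, against 230230 and 238487 TPM in the other libraries of its group. In all other groups they ranged from 192856 to 282526 TPM. Of the macrophage markers 10 of 15 were above that level, among them several copies of MFAP4 (1 of many). A further copy of that name was at 0 in every library. Macrophage markers summed to 620 TPM in refed surface replicate 3, against 50.3 and 33.6 TPM in replicates 1 and 2. They spanned 57.0 to 115 TPM in starved surface, 140 to 459 TPM in starved Pachón and 95.4 to 172 TPM in refed Pachón libraries. Of the intestine markers 6 of 9 were above that level, namely copies of apoa4a, fabp2 and anpepb. The markers vil1 and slc15a1b did not reach it, and cdx1b was at 0. Intestine markers summed to 209, 369 and 1020 TPM in refed surface libraries and to 1652, 418 and 974 TPM in refed Pachón libraries. They reached 1385 TPM in starved surface replicate 3 and 528 TPM in starved Pachón replicate 1. Starved surface replicate 2 also had the most erythrocyte markers of its group, 366 TPM against 132 and 66 TPM, and the fewest cholangiocyte markers, 304 TPM against 1021 and 702 TPM. Neutrophil markers summed to 47.9 TPM in starved surface replicate 1, against 2.93 and 2.61 TPM in replicates 2 and 3. The part of these cells in the proteasome values was not tested. In bulk liver, fewer cells of a type and less RNA per cell cannot be told apart.

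The alpha subunits form the outer rings and the gate of the core. Of their 10 genes 5 rose in Pachón cavefish, 3 of them under every alternative, against 22.9% of all tested genes. In surface fish 1 of the 10 rose, near the 9.03% of all tested genes. The alpha medians were 1.03 and 0.55 on the log2 scale. The alpha gene with the smallest p in Pachón cavefish was psma6a (ENSAMXG00000039104), one of 3 genes here named after the same alpha subunit. Its starved Pachón libraries held 2.25, 2.6 and 2.41 TPM and its refed ones 6.56, 6.40 and 5.55 TPM. The refed libraries were all more than double the starved ones, and the log2 fold change was 1.07 ± 0.18 (SE, adjusted p = 0.0013 by limma). In surface fish the libraries held 2.56, 4.42 and 2.98 TPM when starved and 4.41, 4.24 and 5.21 TPM when refed. Starved replicate 2 lay within the refed range there, and the log2 fold change was 0.40 ± 0.18 (adjusted p = 0.15 by limma). The more abundant psma6b rose by 1.41 ± 0.27 in Pachón cavefish (adjusted p = 0.0027 by limma), from 10.3 ± 1.11 to 28.9 ± 3.65 TPM (SD, n = 3).

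The alpha gene with the largest change was psma8 (ENSAMXG00000038711), named after a subunit that in mice takes the place of Psma7 in the testis. Starved Pachón libraries held 3.36, 4.24 and 2.31 TPM and refed ones 17.5, 14.0 and 12.7 TPM. Starved surface libraries held 1.86, 9.61 and 3.97 TPM and refed ones 9.96, 10.5 and 15.5 TPM. The groups were far apart in Pachón cavefish, while starved surface replicate 2 came close to the lowest refed library. The log2 fold change was 1.89 ± 0.40 in Pachón cavefish (adjusted p = 0.0042 by limma) and 1.26 ± 0.40 in surface fish (adjusted p = 0.047 by limma). The surface call ended without any 1 library other than starved replicate 2, with adjusted p up to 0.15. In Pachón cavefish the abundant psma4 rose from 60.4 ± 16.9 to 119 ± 11.7 TPM (log2 fold change 1.00 ± 0.27, adjusted p = 0.015 by limma). The call of psma4 ended without Pachón starved replicate 3 or refed replicate 1, with adjusted p up to 0.067.

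Of the 7 constitutive beta subunits, limma called 1 higher in Pachón cavefish and 0 in surface fish, against 22.9% and 9.03% of all tested genes. At an unadjusted limma p under 0.05 there were 4 and 1 of the 7, against 41.1% and 33.1% of all tested genes. The median was 0.96 in Pachón cavefish and 0.56 in surface fish, close to the medians of the alpha subunits. In Pachón cavefish the refed libraries lay above the starved ones for all 7 genes, against 35.7% of all tested genes. The called gene was psmb7 (ENSAMXG00000036576), the subunit with trypsin-like activity. Its Pachón libraries held 48.4, 52.4 and 30.9 TPM when starved and 128, 98.8 and 94.4 TPM when refed. Every refed library was well above the starved ones, with a log2 fold change of 1.29 ± 0.37 (adjusted p = 0.020 by limma). Without Pachón starved replicate 3 or refed replicate 1 the adjusted p of psmb7 passed 0.05 and reached 0.085. In surface fish the libraries held 20.7, 59.5 and 46.7 TPM when starved and 61.4, 68.1 and 93.3 TPM when refed, with a log2 fold change of 0.90 ± 0.37 (adjusted p = 0.11 by limma). These surface groups did not overlap, but starved replicate 2 was close to refed replicate 1.

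The 4 inducible beta subunits take the place of the cutting subunits in immune cells or after interferon, and none of them was called. At an unadjusted p under 0.05, limma gave 1 of the 4 in Pachón cavefish (psmb10) and 0 in surface fish, against 41.1% and 33.1% of all tested genes. For 3 of them, psmb8a, psmb12 and psmb9a, levels varied widely within groups. The range over the 3 libraries, averaged over the 4 groups, had a median of 1.62 on the log2(TPM + 1) scale over all 4 inducible genes, against 0.84 for the constitutive beta subunits and 0.56 for the ATPases. The widest was psmb8a (ENSAMXG00000014118), with 2.45, while psmb10 had 0.60 and ranked 35 of the 52 genes. The alpha genes psma6l with 1.31 and PSMA7 with 1.27 had ranges like that of psmb9a.

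Starved surface libraries held 19.5, 4.25 and 1.54 TPM of psmb8a and refed ones 2.05, 2.42 and 17.6 TPM. Starved Pachón libraries held 17.3, 18.8 and 3.92 TPM and refed ones 29.4, 5.77 and 19.5 TPM. High and low libraries occurred in every group, and the groups overlapped in both populations. On the log2 scale the change was -0.17 ± 0.92 in surface fish (adjusted p = 0.93 by limma) and 0.41 ± 0.92 in Pachón cavefish (adjusted p = 0.78 by limma).

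For psmb12 (ENSAMXG00000014107), a further fish beta subunit of this class, starved surface libraries held 8.94, 4.52 and 7.53 TPM and refed ones 2.33, 4.34 and 18.9 TPM. In Pachón cavefish they held 9.52, 12.7 and 2.16 TPM when starved and 21.9, 3.62 and 15.2 TPM when refed. As for psmb8a, surface refed replicate 3 was high, and Pachón starved replicate 3 and refed replicate 2 were low. For psmb9a (ENSAMXG00000014090) the surface libraries held 10.0, 8.89 and 9.23 TPM when starved and 6.59, 11.3 and 15.9 TPM when refed. The Pachón libraries held 18.2, 9.72 and 2.56 TPM when starved and 17.4, 6.28 and 12.2 TPM when refed. The same 3 libraries thus stood at the ends of their groups for psmb9a. In the RefSeq annotation of the AstMex3_surface assembly, psmb9a, psmb12, psmb13a and psmb8a lie side by side between the peptide transporter gene tap2a and tapbp.1. Summed macrophage markers, like psmb8a, were highest of their group in surface starved replicate 1 and surface refed replicate 3 and lowest in Pachón starved replicate 3. In refed Pachón libraries they were 124, 172 and 95.4 TPM in replicates 1 to 3, where all 3 genes were lowest in replicate 2. Neutrophil markers, 2 of 10 above 1 TPM in 3 libraries, were also highest in surface starved replicate 1 and refed replicate 3. They summed to 10.4, 9.07 and 4.79 TPM in starved and 8.22, 5.47 and 5.82 TPM in refed Pachón libraries. T and NK cell markers, 2 of 8 above 1 TPM in 3 libraries, were highest in the same library as psmb8a in every group. Those libraries held 5.34 TPM in starved and 3.95 TPM in refed surface fish, and 8.49 and 7.89 TPM in Pachón cavefish. The lowest libraries of these markers matched those of psmb8a only in starved surface fish. B cell markers, 2 of 5 above that level, were highest in surface refed replicate 2, with 18.4 TPM. A link of psmb8a, psmb12 or psmb9a to any cell type was not tested.

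Of psmb10 (ENSAMXG00000036130), starved Pachón libraries held 8.29, 8.58 and 5.64 TPM and refed ones 15.6, 9.56 and 11.1 TPM. The groups did not overlap, but the log2 fold change of 0.61 ± 0.26 did not pass the test (adjusted p = 0.098 by limma). In surface fish its levels were 7.47 ± 1.69 and 7.68 ± 2.07 TPM (SD, n = 3), starved and refed.

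**Figure D3:**
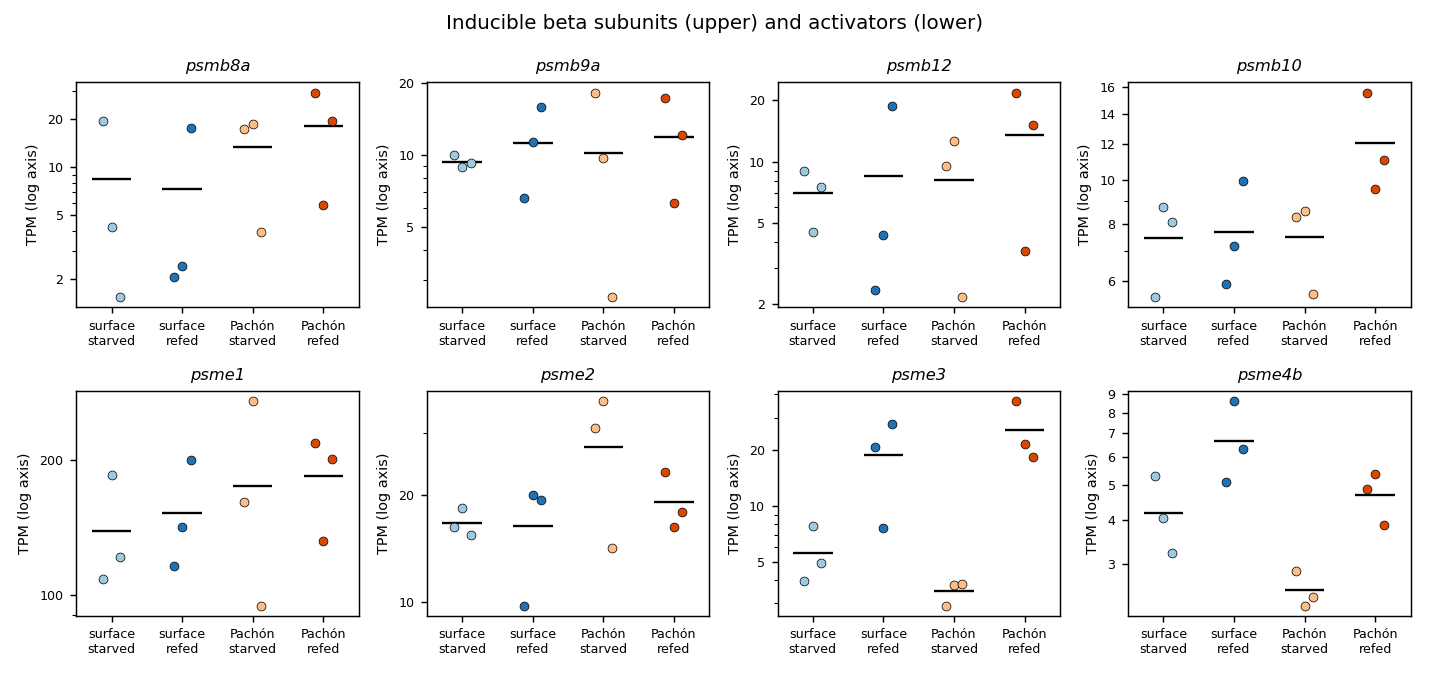
Level in TPM, on log axes, of the 4 inducible beta subunits and the 4 activators in each library, with lines at the group means of 3. The points of psmb8a, psmb9a and psmb12 overlap between starved and refed fish in both populations, while psme3 is above its starved levels in all 3 refed Pachón libraries.

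In the 19S base, 6 of the 7 ATPase genes rose in Pachón cavefish and 1 in surface fish, with medians of 0.97 and 0.64. The shares of all tested genes that rose were 22.9% and 9.03%. Of the 6 calls 3 held under every alternative, and those of psmc5 and psmc2 ended under 13 and 10 of 23. The ATPases form the ring that unfolds substrates. The refed Pachón libraries lay above the starved ones for all 7, against 35.7% of all tested genes. Of the 7 ATPase genes, psmc6 (ENSAMXG00000034638) had 20.2, 18.5 and 14.3 TPM in starved and 60.3, 49.8 and 54.8 TPM in refed Pachón libraries. Every refed library thus exceeded the highest starved one by far, with a log2 fold change of 1.59 ± 0.33 (adjusted p = 0.0037 by limma). In surface fish it had 11.6, 32.0 and 21.7 TPM when starved and 31.9, 34.8 and 51.3 TPM when refed. Starved replicate 2 lay within the refed range by a narrow margin, and the change of 0.90 ± 0.33 did not pass (adjusted p = 0.076 by limma). The ATPase that did was psmc4, with 7.17, 12 and 8.29 TPM in starved and 12.2, 15.1 and 24.3 TPM in refed surface libraries. The groups of psmc4 were separate by the small gap between starved replicate 2 and refed replicate 1, with a log2 fold change of 0.81 ± 0.26 (adjusted p = 0.049 by limma). That call ended without any 1 library other than surface starved replicate 2 and surface refed replicate 1, with adjusted p up to 0.16.

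The non-ATPase part of the base was represented by the large scaffold psmd1 and the ubiquitin receptors psmd4a and adrm1. Of these 3 genes 2 rose in Pachón cavefish and 1 in surface fish, against 22.9% and 9.03% of all tested genes. No gene was listed under the symbols psmd2, a further base subunit, or psmd3, a lid subunit. The level of psmd1 (ENSAMXG00000001344) was 9.25, 12 and 7.75 TPM in starved and 41.8, 34.9 and 33.9 TPM in refed Pachón libraries. In surface fish it was 8.06, 22.1 and 12 TPM when starved and 23.4, 31.0 and 47.5 TPM when refed. Both populations had separate groups, with a wide gap in Pachón cavefish and a narrow one in surface fish. Its fold change, as log2, was 1.84 ± 0.35 in Pachón cavefish (adjusted p = 0.0023 by limma), which held under every alternative, and 1.27 ± 0.35 in surface fish (adjusted p = 0.027 by limma). The surface call of psmd1 ended without starved replicate 1 or 3 or refed replicate 2 or 3, with adjusted p up to 0.10. The receptor psmd4a rose by 1.06 ± 0.27 in Pachón cavefish (adjusted p = 0.012 by limma), a call lost with quantile normalization. The other receptor, adrm1, had 23.7 ± 6.87 and 38.6 ± 11.2 TPM (SD, n = 3) in starved and refed Pachón libraries, which overlapped (adjusted p = 0.14 by limma).

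The lid, which removes the ubiquitin chain, had the highest median change of the structural groups: 1.64 in Pachón cavefish and 0.82 in surface fish. Of its 9 genes 8 rose in Pachón cavefish, 6 of them under every alternative, against 22.9% of all tested genes. In surface fish 3 rose, against 9.03%. The differences between structural groups were not tested. The lid scaffold psmd12 (ENSAMXG00000003863) had the largest change of these in Pachón cavefish, and psmd11b in surface fish. Its starved Pachón libraries held 6.95, 8.47 and 6.85 TPM and the refed ones 52.2, 44.0 and 41.7 TPM. Its starved surface libraries held 6.25, 25.0 and 10.6 TPM and the refed ones 29.4, 26.2 and 44.9 TPM. All refed Pachón libraries were several times above the starved ones, whereas starved surface replicate 2 came close to the refed surface range. The log2 fold change was 2.48 ± 0.39 in Pachón cavefish (adjusted p = 0.00082 by limma) and 1.37 ± 0.39 in surface fish (adjusted p = 0.031 by limma). The surface call ended without starved replicate 1 or 3 or refed replicate 1 or 3, with adjusted p up to 0.11.

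The partner of the deubiquitinating subunit psmd14, psmd7 (ENSAMXG00000035441), was among the lid genes with the smallest p. It had 16.5, 20.1 and 16.7 TPM in starved and 66.3, 58.7 and 47.8 TPM in refed Pachón libraries. In surface fish it had 14.7, 31.6 and 21.2 TPM when starved and 41.8, 38.6 and 52.6 TPM when refed. The groups were separate in both populations. On the log2 scale the change was 1.64 ± 0.27 in Pachón cavefish (adjusted p = 0.0011 by limma) and 1.00 ± 0.27 in surface fish (adjusted p = 0.026 by limma). For psmd7 the surface call ended without starved replicate 1 or 3 or refed replicate 3, with adjusted p up to 0.091. The deubiquitinase psmd14 itself rose from 11 ± 1.65 to 27.6 ± 4.10 TPM in Pachón cavefish (log2 fold change 1.25 ± 0.34, adjusted p = 0.016 by limma). Without Pachón starved replicate 3 or refed replicate 1 that adjusted p was up to 0.064, and the call was also lost with quantile normalization. In surface fish psmd14 had a log2 fold change of 1.02 ± 0.34 (adjusted p = 0.058 by limma).

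Of the 3 chaperones that assemble the 19S base, psmd10 and psmd5 rose in Pachón cavefish and psmd10 in surface fish. Over all tested genes 22.9% and 9.03% rose. The Pachón call of psmd5 (adjusted p = 0.023 by limma) ended without starved replicate 3 or any 1 refed library, with adjusted p up to 0.098. It was also lost with no filter and with quantile normalization. The largest change of any member in surface fish was that of psmd10 (ENSAMXG00000044092), known in mammals as gankyrin. It had 0.80, 3.08 and 0.99 TPM in starved and 4.24, 5.58 and 9.52 TPM in refed surface libraries. In Pachón cavefish it had 2.52, 2.45 and 1.24 TPM when starved and 7.68, 11.8 and 7.30 TPM when refed. No starved library reached a refed one in either population. Its fold change, as log2, was 1.54 ± 0.36 in surface fish (adjusted p = 0.014 by limma) and 1.70 ± 0.36 in Pachón cavefish (adjusted p = 0.0042 by limma). Without surface refed replicate 3 the adjusted p in surface fish was 0.053.

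The third chaperone, psmd9 (ENSAMXG00000013598), did not share this direction. Its surface libraries held 5.27, 10.2 and 6.52 TPM when starved and 4.19, 4.30 and 4.21 TPM when refed. Its Pachón libraries held 7.02, 6.81 and 6.11 TPM when starved and 6.98, 6.62 and 6.06 TPM when refed. The refed surface libraries were all below the starved ones, which 17.8% of all tested genes showed, and the Pachón groups overlapped. The log2 fold change of -0.63 ± 0.21 in surface fish did not pass (adjusted p = 0.055 by limma). It did pass without surface starved replicate 1 (adjusted p = 0.026 by limma), with median-of-ratios scaling (0.042), with quantile normalization (0.033) and with a filter of 5 TPM (0.0497). That of Pachón cavefish was -0.02 ± 0.21 (adjusted p = 0.96 by limma).

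Of the 4 factors that assemble the 20S core, psmg1 and psmg2 rose in both populations, while pomp and psmg3 were not called. The share of all tested genes that rose was 22.9% in Pachón cavefish and 9.03% in surface fish. The proteins of psmg1 and psmg2 form a pair that builds the alpha ring. Starved Pachón libraries held 1.95, 3.22 and 1.91 TPM of psmg1 (ENSAMXG00000041801) and refed ones 9.89, 8.33 and 6.93 TPM. Starved surface libraries held 2.58, 3.11 and 2.67 TPM and refed ones 4.50, 6.74 and 8.53 TPM. Unlike most members, psmg1 was even across the starved surface libraries. The log2 fold change was 1.49 ± 0.23 in Pachón cavefish (adjusted p = 0.00083 by limma) and 0.97 ± 0.23 in surface fish (adjusted p = 0.017 by limma). The surface call of psmg1 ended without refed replicate 3, with an adjusted p of 0.062.

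The partner psmg2 (ENSAMXG00000030096) had the lowest mean level of the 52 genes. It had 1.07, 1.15 and 1.09 TPM in starved and 3.67, 3.47 and 4.66 TPM in refed Pachón libraries, and 1.18, 2.37 and 1.58 TPM against 2.67, 3.31 and 4.41 TPM in surface fish. Starved and refed libraries were separate in both populations. On the log2 scale the change was 1.22 ± 0.20 in Pachón cavefish (adjusted p = 0.0011 by limma) and 0.72 ± 0.20 in surface fish (adjusted p = 0.030 by limma). For psmg2 the surface call ended without starved replicate 1 or 3 or refed replicate 2 or 3, with adjusted p up to 0.11. The maturation factor pomp had a log2 fold change of 0.70 ± 0.31 in Pachón cavefish (adjusted p = 0.11 by limma).

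The 4 activators are alternative caps that open the core without the 19S particle. The nuclear activator psme3 (ENSAMXG00000036793) had the largest change of all 52 genes in Pachón cavefish. Its starved Pachón libraries held 2.92, 3.79 and 3.80 TPM and the refed ones 36.7, 21.7 and 18.4 TPM. Its starved surface libraries held 3.98, 7.85 and 4.95 TPM and the refed ones 20.9, 7.68 and 27.8 TPM. The Pachón groups were far apart, while surface refed replicate 2 lay below starved replicate 2. Its fold change, as log2, was 2.51 ± 0.41 in Pachón cavefish (adjusted p = 0.0011 by limma) and 1.46 ± 0.41 in surface fish (adjusted p = 0.032 by limma). The surface call of psme3 ended without starved replicate 1 or 3 or refed replicate 1 or 3, with adjusted p up to 0.11, and under the replicate block.

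The interferon-inducible pair psme1 and psme2, which form one cap together, was not called. The level of psme1 (ENSAMXG00000039644) was the highest of the 52 genes, with a mean of 162 TPM over the 12 libraries. It was 109, 185 and 121 TPM in starved and 116, 141 and 200 TPM in refed surface libraries. In Pachón cavefish it was 161, 270 and 94.7 TPM when starved and 218, 132 and 201 TPM when refed. Starved and refed libraries overlapped in both populations. For psme2 (ENSAMXG00000036909) the log2 fold change was -0.08 ± 0.35 in surface fish (adjusted p = 0.90 by limma) and -0.41 ± 0.35 in Pachón cavefish (adjusted p = 0.43 by limma). The fourth activator, psme4b (ENSAMXG00000012809), rose in Pachón cavefish from 2.88, 2.30 and 2.43 TPM to 4.89, 5.37 and 3.87 TPM. Its log2 fold change was 0.69 ± 0.22 (adjusted p = 0.032 by limma), a call lost without starved replicate 2 or 3 or refed replicate 1 or 2, with adjusted p up to 0.11, and with no filter, median-of-ratios scaling or quantile normalization. In surface fish its log2 fold change was 0.56 ± 0.22 (adjusted p = 0.095 by limma).

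The inhibitor psmf1 (ENSAMXG00000009630), which binds the ends of the core, was not called in either population as deposited, but was called lower in Pachón cavefish under other scalings. Its surface libraries held 21.3, 24.9 and 22.6 TPM when starved and 12.7, 15.2 and 20.3 TPM when refed. Its Pachón libraries held 23.2, 47.0 and 26.9 TPM when starved and 25.0, 18.1 and 23.2 TPM when refed. The surface groups did not overlap, and the Pachón groups did. The log2 fold change was -0.51 ± 0.28 in surface fish (adjusted p = 0.22 by limma) and -0.48 ± 0.28 in Pachón cavefish (adjusted p = 0.22 by limma). In Pachón cavefish psmf1 was called lower with median-of-ratios scaling (-0.76, adjusted p = 0.043 by limma) and with quantile normalization (-0.90, adjusted p = 0.017 by limma).

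Several subunits are encoded by paired genes in this fish. Within some pairs the ratios of starved and refed libraries did not overlap. These pairs were chosen after their values were seen, so the test of the ratios below is only a description. With 3 libraries against 3 that test could not pass 0.05. For the ATPase psmc1, the ratio of psmc1b (ENSAMXG00000009493) to psmc1a (ENSAMXG00000008023) was 0.558 ± 0.0611 in starved and 1.12 ± 0.104 in refed surface fish (SD, n = 3). In Pachón cavefish it was 0.556 ± 0.118 and 1.08 ± 0.0318. The refed libraries were all above the starved ones in both populations. In Pachón cavefish psmc1b rose by 1.48 ± 0.29 (adjusted p = 0.0030 by limma), and psmc1a had a log2 fold change of 0.63 ± 0.24 (adjusted p = 0.065 by limma). In surface fish the values were 0.85 ± 0.29 (adjusted p = 0.064 by limma) and -0.05 ± 0.24 (adjusted p = 0.91 by limma).

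For the lid subunit psmd11, the clamp between lid and core, the ratio of psmd11b (ENSAMXG00000010395) to psmd11a (ENSAMXG00000004856) went from 1.06 ± 0.282 to 2.30 ± 0.468 in surface fish and from 0.704 ± 0.0435 to 2.00 ± 0.569 in Pachón cavefish. The psmd11b levels were 5.39, 16.6 and 10.1 TPM in starved and 22.1, 24.8 and 37.8 TPM in refed surface libraries, and 8.63, 10.4 and 7.42 TPM against 38.5, 29.1 and 26.5 TPM in Pachón libraries. Refed libraries of psmd11b were above starved ones in both populations. It rose by 1.72 ± 0.34 in Pachón cavefish (adjusted p = 0.0033 by limma) and by 1.40 ± 0.34 in surface fish (adjusted p = 0.018 by limma). The surface call ended without refed replicate 3, with an adjusted p of 0.069. For psmd11a the log2 fold changes were 0.33 ± 0.30 and 0.35 ± 0.30 (adjusted p = 0.46 and 0.47 by limma).

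For psma8 against PSMA7 (ENSAMXG00000041229) the ratio went from 0.156 ± 0.0574 to 0.378 ± 0.131 in surface fish and from 0.0961 ± 0.0324 to 0.351 ± 0.0834 in Pachón cavefish. For PSMD13 (1 of many) against psmd13, both named as the same lid subunit, it went from 0.225 ± 0.0899 to 0.596 ± 0.157 in Pachón cavefish, and the surface libraries overlapped. PSMD13 (1 of many) (ENSAMXG00000029773) had 2.48, 1.37 and 1.41 TPM in starved and 9.07, 9.82 and 5.76 TPM in refed Pachón libraries, all refed ones higher, a log2 fold change of 1.74 ± 0.33 (adjusted p = 0.0025 by limma). The exact permutation test of the log2 ratio, two-sided, gave p = 0.1 for each of these ratios except that of psmd13 in surface fish, and 0.1 is the smallest p that 3 libraries against 3 allow. Adjusted over the 12 ratio tests run, this exact p was 0.17. The ratios of psma6b to psma6a and to psma6l overlapped between starved and refed libraries in both populations (exact permutation p from 0.2 to 0.3). The reads were short and single, and the RSEM estimate can move reads between similar copies, so the split within a pair is uncertain.

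**Figure D4:**
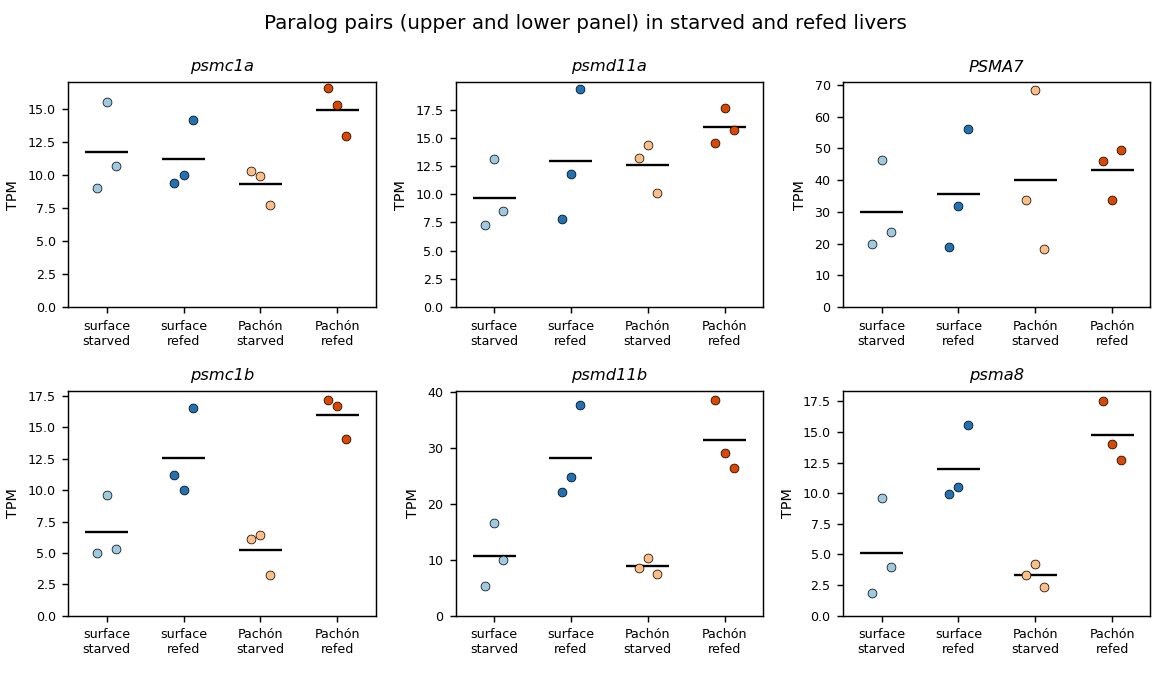
Level in TPM of 3 pairs of related proteasome genes in each library, with lines at the group means of 3. In the lower panels psmc1b, psmd11b and psma8 have all refed libraries above all starved ones in both populations. In the upper panels psmc1a, psmd11a and PSMA7 overlap in surface fish. In Pachón cavefish PSMA7 overlaps, but refed libraries lie above starved ones for psmc1a and, narrowly (14.51 against 14.4 TPM), for psmd11a.

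Between the populations no proteasome gene was called in either feeding state. Among starved fish limma called 0 of the 52 genes, against 13.1% of all tested genes, and 1 had an unadjusted p under 0.05, against 29.0%. That gene was psme4b, with 5.30, 4.05 and 3.23 TPM in starved surface and 2.88, 2.30 and 2.43 TPM in starved Pachón libraries. All Pachón libraries were lower, but the log2 fold change of -0.54 ± 0.22 did not pass (adjusted p = 0.12 by limma). The median over the 52 genes was -0.13, as over all tested genes, and turned to 0.13 without surface starved replicate 2 and to 0.04 without Pachón starved replicate 3. Without surface starved replicate 2 and surface refed replicate 3 together, a choice made after seeing the data, 1 gene was called, the alpha subunit psma2.

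Among refed fish limma called 0 of the 52 genes, against 13.4% of all tested genes, and 2 had an unadjusted p under 0.05, against 29.5%. Nearly all were somewhat higher in Pachón cavefish: 51 of the 52 log2 fold changes were above 0, against 64.5% of all tested genes, with a median of 0.36 against 0.18. That median was 0.154 with median-of-ratios scaling, 0.162 with quantile normalization, and from 0.158 to 0.561 with 1 library left out. Libraries differed mostly in the same direction across these genes, so the signs are not separate observations. The 2 genes with an unadjusted limma p under 0.05 included the chaperone psmd9, with a log2 fold change of 0.53 ± 0.21 (adjusted p = 0.11 by limma). The other was psmb10, with 0.59 ± 0.26 (adjusted p = 0.15 by limma). Refed surface libraries of psmd9, at 4.19 to 4.30 TPM, were all below the refed Pachón ones, at 6.06 to 6.98 TPM. Without surface starved replicate 2, psmd9 was called (adjusted p = 0.042 by limma). Without surface starved replicate 2 and surface refed replicate 3 together, 2 other genes were called, psmd5 and psmc4.

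The size of the response to the meal was not shown to differ between the populations for any proteasome gene. The difference of responses, Pachón minus surface, gave 0 calls among the 52 genes by limma, against 0.0684% of all tested genes, and 2 had an unadjusted p under 0.05, against 16.5%. It was above 0 for 48 of the 52 genes, against 71.0% of all tested genes, with a median of 0.48 against 0.29. The 52 signs are not separate observations, since libraries differed mostly in the same direction across these genes. An unadjusted limma p under 0.05 was found for psma6a, with a difference of 0.67 ± 0.26 (adjusted p = 0.24 by limma). The other such gene was PSMD13 (1 of many), with 1.08 ± 0.47 (adjusted p = 0.28 by limma). Next to PSMD13 (1 of many), the largest differences were 1.1 ± 0.55 for psmd12 (adjusted p = 0.34 by limma) and 1.05 ± 0.59 for psme3 (adjusted p = 0.39 by limma). Scaling by median of ratios took the median of all tested genes from 0.29 to 0.03 and that of the proteasome genes to 0.15. Leaving out surface starved replicate 2 and Pachón refed replicate 1 together gave a median of 0.09 for the proteasome genes.

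Beyond the proteasome itself, some genes of its partners also rose after the meal. Of 18 tested proteasome-bound enzymes, shuttles and cofactors, 10 rose in Pachón cavefish and 4 in surface fish, and 0 fell, against the 22.9% and 9.03% of all tested genes that rose. The deubiquitinase usp14 (ENSAMXG00000040100), which trims chains on the cap, had 1.66, 2.24 and 1.44 TPM in starved and 18.4, 13.8 and 12.6 TPM in refed Pachón libraries. In surface fish it had 1.08, 6.29 and 2.09 TPM when starved and 8.04, 8.62 and 15.0 TPM when refed. The groups were separate in both populations, with log2 fold changes of 2.51 ± 0.40 (adjusted p = 0.00085 by limma) and 1.63 ± 0.40 (adjusted p = 0.017 by limma). For usp14 the surface call ended without starved replicate 1 or 3 or refed replicate 3, with adjusted p up to 0.065. It was also lost with only the surface libraries fitted.

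The other deubiquitinase of the cap, uchl5 (ENSAMXG00000017664), docks on adrm1. It had 6.06, 6.20 and 6.63 TPM in starved and 45, 38.7 and 40.3 TPM in refed Pachón libraries, and 4.12, 15.3 and 11.5 TPM against 23.8, 25.0 and 40.1 TPM in surface fish. Both populations had separate groups, with log2 fold changes of 2.53 ± 0.37 in Pachón cavefish (adjusted p = 0.00054 by limma) and 1.56 ± 0.37 in surface fish (adjusted p = 0.015 by limma). The surface call of uchl5 ended without refed replicate 3, with an adjusted p of 0.058, and with only the surface libraries fitted. The small lid subunit sem1, which the symbol rule does not cover, rose in Pachón cavefish by 0.76 (adjusted p = 0.040 by limma). That call ended without surface refed replicate 2, Pachón starved replicate 1 or 3 or any 1 refed Pachón library. It was also lost with no filter and with median-of-ratios scaling.

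Ubiquitin precursors gave 0 calls of 3 after the meal in either population by limma. Of all tested genes 22.9% rose in Pachón cavefish and 9.03% in surface fish. At an unadjusted limma p under 0.05 there were also 0 of 3, against 41.1% and 33.1% of all tested genes. With only 3 genes, these counts cannot tell the precursors from all tested genes. Some enzymes that activate and conjugate ubiquitin rose. Of 31 such enzymes 14 rose and 1 fell in Pachón cavefish, against 22.9% and 7.64% of all tested genes. In surface fish 5 rose and 1 fell, against 9.03% and 9.68%. The main activating enzyme, uba1 (ENSAMXG00000015276), had 8.27, 6.90 and 5.80 TPM in starved and 32.6, 21.1 and 21.5 TPM in refed Pachón libraries. In surface fish it had 8.65, 9.90 and 6.93 TPM when starved and 17.1, 12.7 and 22.3 TPM when refed. Refed libraries were higher throughout, with log2 fold changes of 1.69 ± 0.26 (adjusted p = 0.00066 by limma) and 0.93 ± 0.26 (adjusted p = 0.028 by limma). For uba1 the surface call ended without starved replicate 1 or 3 or refed replicate 1 or 3, with adjusted p up to 0.10. That call was also lost with only the surface libraries fitted. Of 16 tested genes for cofactors of the segregase p97, which pulls substrates free before the proteasome, 8 rose and 2 fell in Pachón cavefish. In surface fish 3 rose and 1 fell. Of all tested genes 22.9% rose and 7.64% fell in Pachón cavefish, and 9.03% rose and 9.68% fell in surface fish. The cofactor plaa rose by 1.91 ± 0.27 in Pachón cavefish (adjusted p = 0.00048 by limma), and ufd1l fell by 1.17 in surface fish (adjusted p = 0.021 by limma). The ufd1l call was lost without surface refed replicate 2 (adjusted p = 0.063) and with only the surface libraries fitted.

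Of 9 tested subunits of the COP9 signalosome, a complex built like the lid, 3 rose in Pachón cavefish and 1 in surface fish. In Pachón cavefish cops4 rose by 1.87 ± 0.25 (adjusted p = 0.00035 by limma). For the lists of this paragraph, 22.9% of all tested genes rose and 7.64% fell in Pachón cavefish. In surface fish 9.03% rose and 9.68% fell. At an unadjusted limma p under 0.05 the shares were 41.1% in Pachón cavefish and 33.1% in surface fish. Limma called 0 of 8 subunits of the CCT chaperonin, another large ring complex, in both populations, with 0 at an unadjusted p under 0.05 in surface fish and 3 in Pachón cavefish. Of 20 tested genes of interferon signalling and class I antigen presentation, limma called 0 in Pachón cavefish, with 3 at an unadjusted p under 0.05. In surface fish 0 rose and 1 fell, irf7 (log2 fold change -3.29 ± 0.34, adjusted p = 0.00045 by limma). Of 7 tested ubiquitin ligases linked to fasting in muscle, 1 fell in surface fish, fbxo21 (log2 fold change -0.73 ± 0.19, adjusted p = 0.020 by limma), and limma called 0 in Pachón cavefish, also at an unadjusted p under 0.05. The fbxo21 call ended without surface starved replicate 1 or surface refed replicate 1 or 2, with adjusted p up to 0.062. With only the surface libraries fitted it was lost as well.

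Among regulators of proteasome genes some rose and some fell. In mammals the factor NFE2L1 switches on proteasome genes when proteasome activity is low. Of 10 tested genes of these factors and their regulators, 3 rose and 3 fell in Pachón cavefish, against 22.9% and 7.64% of all tested genes. In surface fish 1 rose and 2 fell, against 9.03% and 9.68%. The gene nfe2l1a (ENSAMXG00000030680) had 16.4, 22.9 and 27.2 TPM in starved and 2.46, 3.04 and 1.52 TPM in refed Pachón libraries. In surface fish it had 9.17, 21.4 and 14.3 TPM when starved and 3.40, 2.30 and 2.02 TPM when refed. Every refed library was far below every starved one, with log2 fold changes of -2.79 ± 0.31 (adjusted p = 0.00018 by limma) and -2.11 ± 0.31 (adjusted p = 0.0016 by limma), and both calls held under every alternative.

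A further gene with this name, NFE2L1 (ENSAMXG00000030120), was outside the lists and was looked up after the values of nfe2l1a were seen. It had 4.19, 6.58 and 4.79 TPM in starved and 18.3, 16.8 and 13.5 TPM in refed Pachón libraries, and 5.18, 7.43 and 8.16 TPM against 16.9, 9.95 and 14.9 TPM in surface fish. All refed libraries were higher, the opposite direction to nfe2l1a. On the log2 scale the change was 1.48 ± 0.25 in Pachón cavefish (adjusted p = 0.0012 by limma) and 0.90 ± 0.25 in surface fish (adjusted p = 0.029 by limma). The surface call of NFE2L1 ended without starved replicate 1 or refed replicate 1 or 3 and under the replicate block. It also ended with only the surface libraries fitted, with library weights, and without surface starved replicate 2 and either further library. The gene keap1b (ENSAMXG00000011366), whose product marks the related factor NFE2L2 for degradation, fell in both populations. It had 22.8, 16.4 and 18.9 TPM in starved and 8.54, 8.18 and 6.76 TPM in refed Pachón libraries, and 10.0, 16.1 and 12.5 TPM against 5.93, 4.56 and 3.25 TPM in surface fish. The groups of keap1b were separate, with log2 fold changes of -1.20 ± 0.24 (adjusted p = 0.0030 by limma) and -1.32 ± 0.24 (adjusted p = 0.0042 by limma).

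**Figure D5:**
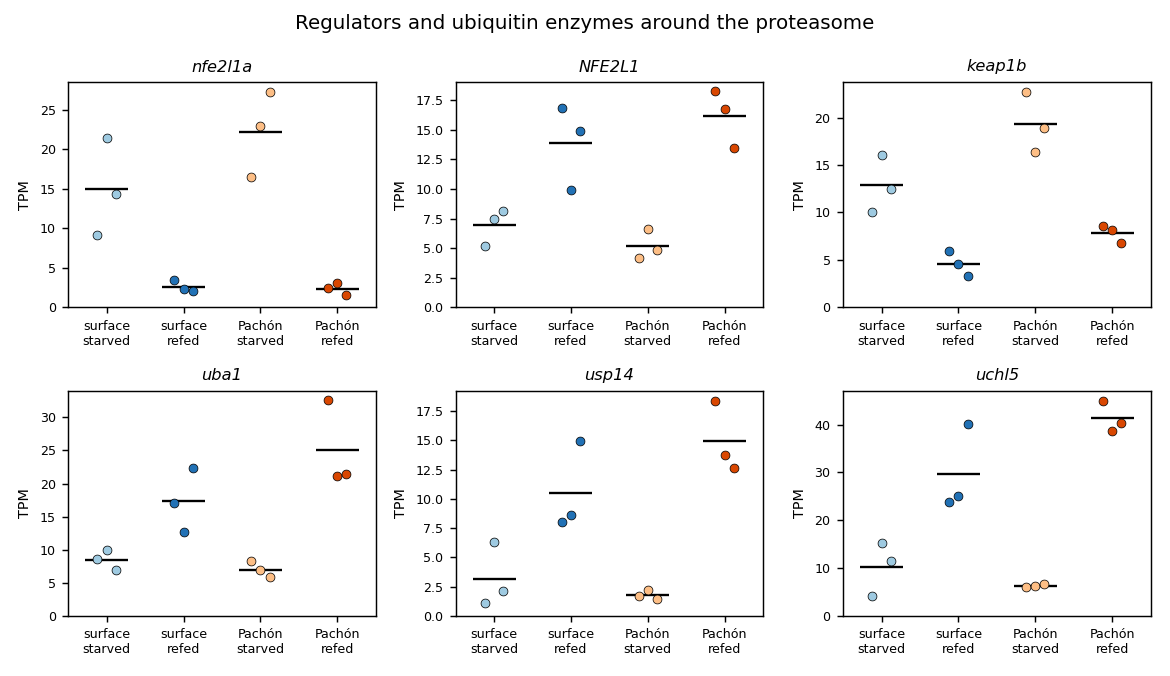
Level in TPM of 3 regulator genes and of the ubiquitin enzymes uba1, usp14 and uchl5 in each library, with lines at the group means of 3. After the meal all libraries of nfe2l1a and keap1b are lower and all libraries of NFE2L1, uba1, usp14 and uchl5 are higher than the starved ones of the same population.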

How the data were processed

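Per the labels' protocols, a stranded kit for polyA RNA and single-end sequencing were used. The authors deposited TPM per gene and library, made with RSEM. The submitters' processing notes also name bcl2fastq 2.18, STAR 2.6.1c and Bowtie2. Which build, annotation and strand setting were used is not given in the sources used here, and ChIP-seq libraries were not used here.

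The 12 libraries were kept, and 0 of 66 pairs were identical. The test was limma 3.58.1, run in R 4.3.3 on log2(TPM + 1), with 4 group means, a variance prior with a mean trend, 8 residual and 3.303 prior degrees of freedom, and Benjamini-Hochberg adjustment over 13157 genes with at least 1 TPM in 3 libraries. Fold changes on this scale understate those of low genes. Members and lists were chosen with earlier results of these data known. The text names the members with the smallest p or largest change in a role, the inducible beta subunits, the activators, and up to 3 genes of each other list. Some further members, sem1 and NFE2L1 are named outside this rule. RefSeq held the symbols of 48 of the 52 members and gave the gene order.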

Additional observations from a re-analysis of the deposited data

How the results depend on the processing

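In surface fish, where 10 proteasome genes were called, the count was 0 with only the surface libraries fitted, 4 with no filter on low levels, 18 with median-of-ratios scaling, 19 after leaving the 20 most abundant genes out of the scaling, 20 without surface starved replicate 2 and Pachón refed replicate 1 together, and from 0 to 22 with 1 library left out. Over all tested genes, the surface calls were 1188 higher and 1273 lower. They were 322 and 515 with only the surface libraries fitted, and 911 and 1095 with no filter. With median-of-ratios scaling they were 1525 and 1268, and without the 20 most abundant genes 1667 and 1108. In Pachón cavefish the count of 28 ranged from 18 to 32 with 1 library left out and from 20 to 34 under the other alternatives. With median-of-ratios scaling it was 25, against 18 in surface fish. Quantile normalization gave 20 in Pachón cavefish and 15 in surface fish. The replicate block gave 7 calls in surface fish, 26 in Pachón cavefish and 0 in the other comparisons. The deviations of same-numbered libraries from their group means, over all tested genes, correlated at -0.245 to 0.123. The labels do not say that a number pairs libraries, and with 3 libraries a group these values cannot settle it. The 0 calls between refed populations became 1 without surface starved replicate 2, and up to 1 with any 1 library left out. Without surface starved replicate 2 and surface refed replicate 3 together, chosen after seeing the data, surface fish had 7 calls, starved populations 1 and refed populations 2.

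The starved population median of -0.13 was 0.009 with quantile normalization, 0.127 without surface starved replicate 2 and either further library, and from -0.378 to 0.127 with 1 library left out. The median difference of responses was 0.094 without surface starved replicate 2 and Pachón refed replicate 1. Scaling moved the split of all calls in Pachón cavefish from 3019 higher and 1005 lower to 2272 and 1759 with median of ratios, and to 2163 and 1895 with quantile normalization, and the median of all tested genes from 0.17 to -0.02 with median of ratios. The proteasome median was then 0.70.

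Some genes that were not called changed sign. In surface fish psmb10 was at -0.003 with quantile normalization, -0.011 with library weights, -0.04 without surface starved replicate 2 and surface refed replicate 3, and from -0.151 to 0.18 with 1 library left out. There psmb8a was at 0.482 with library weights and from -1.008 to 0.665 with 1 library left out. The same left-out range was -0.881 to 0.407 for psmb12, -0.1 to 0.478 for psmb9a and -0.075 to 0.367 for psme1, and psmb9a was at -0.134 without surface starved replicate 2 and surface refed replicate 3. For psme2 the value was 0.032 with scaling that leaves out the 20 most abundant genes, 0.04 with library weights and from -0.252 to 0.231 with 1 library left out. In Pachón cavefish psmb8a was at -0.011 with quantile normalization, -0.042 without surface starved replicate 2 and Pachón refed replicate 1, and from -0.237 to 1.042 with 1 library left out. There psmd11a was at -0.111 with quantile normalization and psme1 at -0.129 with median of ratios. With 1 library left out, psme1 ranged from -0.215 to 0.535, psmb12 from -0.005 to 1.322 and psmb9a from -0.25 to 0.967. The cause was not tested. TPM keep no depth, so no limit of detection can be given.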
